A study of Mus musculus with 7 samples.

Results

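The 8 genes of lipid handling Lpl, Cd36, Plin2, Pnpla2, Angptl4, Cpt1a, Acadm and Ucp2, were followed in the RNA of sorted β-cells, the insulin-producing cells of the pancreatic islet. They were taken by symbol from a table of 35013 genes, and all 8 of 8 symbols were found. The set was drawn up with earlier results of these libraries known, and Lpl was chosen by its rise in KO_db/db compared to db/db. For Lpl in every comparison, and for all 8 genes in KO_db/db against db/db, values are therefore given as a description without a test.

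The libraries came from 2 KO_db/db, 2 db/db and 3 db/+ mice, with 1 library per mouse. All groups carried RIP-Cre Herr, a Cre transgene driven by the rat insulin promoter with recombination restricted to β-cells, and the tdT fl/+ reporter allele. KO_db/db mice were Aldh1a3 fl/fl and Lepr db/db, so that β-cells lost ALDH1A3, an aldehyde dehydrogenase that makes retinoic acid, in animals without a working leptin receptor. db/db mice were Aldh1a3 fl/+ and Lepr db/db, and db/+ mice were Aldh1a3 fl/+ and Lepr db/+, so that both control groups also had 1 floxed allele in Cre-expressing cells. The study used male and female mice aged 16 to 20 weeks unless stated otherwise and fasted them for 16 h before islets were isolated. Its sorting method describes gates on AldeRed, a fluorescent substrate of the enzyme, and YFP, but the gate used for these libraries was not given in the sources used here.

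Total counts ran from 27496645 to 35852785 per library. Aldh1a3, the targeted gene, was at 4.93 and 7.90 CPM (read counts scaled to a common library total by the TMM method) in KO_db/db, 99.3 and 195 CPM in db/db, and 0.205, 0.0727 and 0.584 CPM in db/+. β-cell markers summed to between 203775 and 441010 CPM and were present in every library. They were lower in db/db (203775 to 227896 CPM) and KO_db/db (226885 to 296374 CPM) than in db/+ (396875 to 441010 CPM). Genes of pancreatic acinar cells summed to 141859 and 11955 CPM in the KO_db/db libraries of mouse 1 and mouse 2, and to between 80.7 and 414 CPM elsewhere. The db/+ library of mouse 3 differed from the other 6 in the sum of 4 Y-linked genes, at 100.1 CPM compared to 0.721 to 2.87 CPM. In bulk RNA, fewer cells of a type and less RNA per cell cannot be told apart.

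A cell obtains fatty acids from circulating lipoproteins through lipoprotein lipase at the cell surface and through membrane proteins such as CD36, and stores them as triglyceride in droplets coated by perilipins. Lipolysis by PNPLA2 releases them again, and entry into mitochondria for β-oxidation is controlled by CPT1A. Nuclear receptors of the PPAR family, which bind DNA together with the retinoid X receptor, are known to activate many of these genes, and in β-cells fatty acids both support insulin secretion and, in excess, impair it.

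In db/db β-cells, Cpt1a and Ucp2 were higher than in db/+, where 37.8% of the 13406 genes tested were called in either direction and 19.9% were called higher. Cd36 and Angptl4 were called higher too, but they passed the filter on low counts only through their counts in db/db, so no count of called genes is read against these shares. Lpl moved in the opposite direction, and Plin2, Pnpla2 and Acadm did not pass the test. In KO_db/db, 3 of 6 tested genes were higher than in db/+, namely Pnpla2, Cpt1a and Ucp2. Of 13228 genes, 38.4% were called and 20.5% were called higher. The sum over 10 markers of ductal cells was also higher in both Lepr db/db groups. It was 189 to 205 CPM in db/+, 296 and 443 CPM in db/db, and 437 and 369 CPM in KO_db/db. Most of it was Krt7 (173 to 191, 254 and 328, and 245 and 287 CPM). Of 5 ductal genes tested in db/db against db/+, 3 were called higher and 0 lower. Krt19 (0.178 and 1.23 CPM in db/db, 0.618 to 0.997 CPM in db/+) and Sox9 (0.118 and 0.192 CPM, 0 to 0.447 CPM) were low and overlapped between these groups. The part of ductal cells in the levels of Cpt1a and Ucp2 was not tested. With no library left out, Lpl and Cd36 differed the most between KO_db/db and db/db. Without KO_db/db mouse 1, the log2 fold change of Angptl4 was -3.74, whereas that of Lpl reached 3.25 at most with any library left out. The plots of the values by library and of the fitted fold changes show these patterns.

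**Figure D1:**
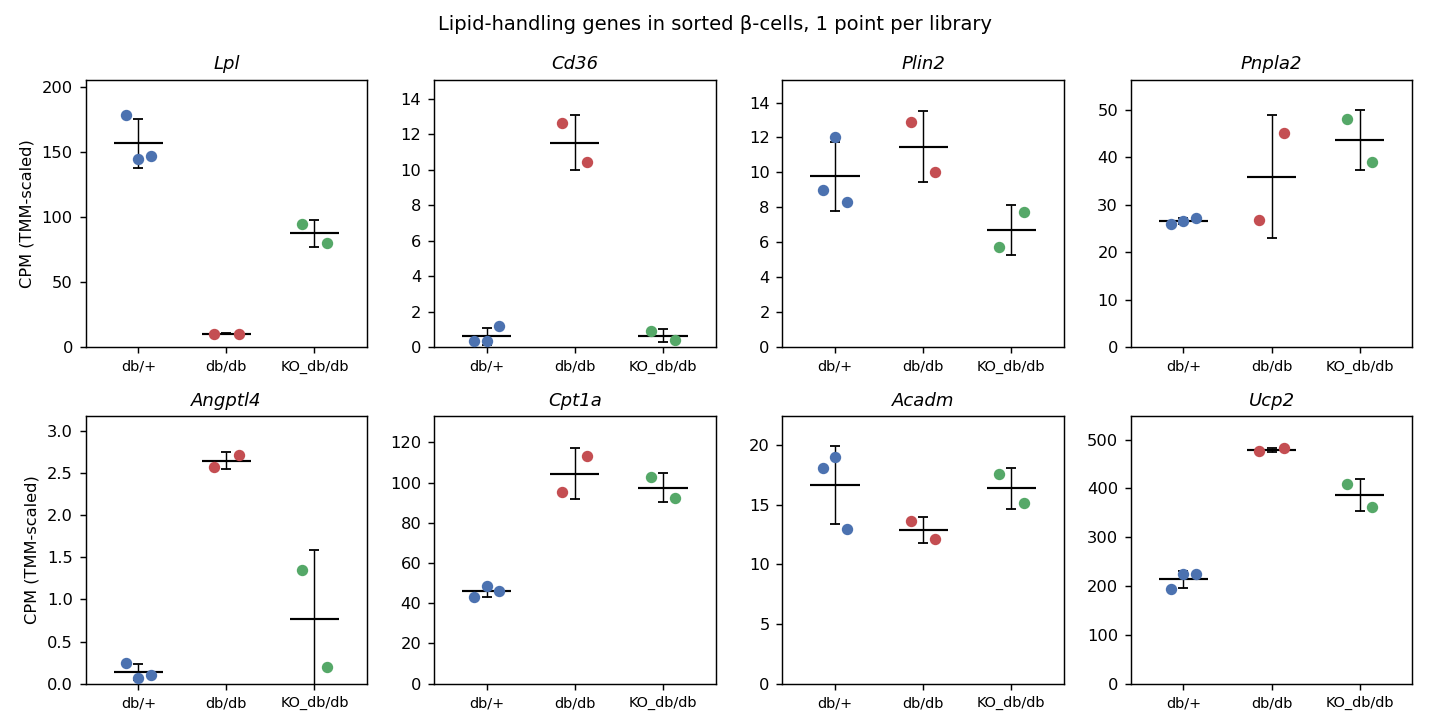
CPM of each gene in the db/+ (3 libraries), db/db (2 libraries) and KO_db/db (2 libraries) groups, with 1 point per library, the mean as a line and the SD as bars; each panel has its own axis, which starts at 0. Lpl was lowest and Cd36 highest in db/db, whereas Cpt1a and Ucp2 were high in both groups of Lepr db/db mice.

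Promoter sequence from RefSeq (GRCm38.p6, 250 bases before to 50 bases after a start site) was found for 6 of the 8 genes. It was searched on both strands for AGGTCA, the half-site that PPAR and retinoid receptors recognize, and for direct repeats of it with a spacer of 1 base (AGGTCANAGGTCA) or 5 bases (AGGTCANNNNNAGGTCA). The half-site was in 4 of the 6 promoters (Cd36, Plin2, Cpt1a and Acadm), compared to 16.3% of 32851 promoters, and the repeats, which contain the half-site, in 0 of 6, compared to 0.0396% and 0.00913%. A match describes the letters of the window and is not a binding site. The promoters of the 3 genes with a sequence that were higher in db/db than in db/+ are shown, with the half-site (here as TGACCT, its reverse complement) in capitals. Cd36 is at chr5:17835847-17836146 on the minus strand, Cpt1a at chr19:3323051-3323350 on the plus strand and Ucp2 at chr7:100493108-100493407 on the plus strand.
Cd36: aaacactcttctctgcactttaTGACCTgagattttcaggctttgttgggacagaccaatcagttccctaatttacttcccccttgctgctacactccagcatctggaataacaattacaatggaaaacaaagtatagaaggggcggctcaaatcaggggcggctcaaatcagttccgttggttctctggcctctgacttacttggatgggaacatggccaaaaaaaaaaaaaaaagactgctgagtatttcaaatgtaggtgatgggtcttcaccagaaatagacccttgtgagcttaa
Cpt1a: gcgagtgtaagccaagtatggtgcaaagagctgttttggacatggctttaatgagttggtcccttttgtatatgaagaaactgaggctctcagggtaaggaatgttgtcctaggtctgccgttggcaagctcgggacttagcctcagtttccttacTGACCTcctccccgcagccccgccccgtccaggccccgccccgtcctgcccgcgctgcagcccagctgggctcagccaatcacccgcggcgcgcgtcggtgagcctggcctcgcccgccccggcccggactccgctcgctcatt
Ucp2: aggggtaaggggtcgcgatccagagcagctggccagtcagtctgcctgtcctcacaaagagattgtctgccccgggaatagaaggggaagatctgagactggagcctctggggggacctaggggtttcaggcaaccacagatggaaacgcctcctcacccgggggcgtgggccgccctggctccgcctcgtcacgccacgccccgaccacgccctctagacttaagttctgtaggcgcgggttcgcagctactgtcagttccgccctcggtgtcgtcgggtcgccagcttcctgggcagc
The match begins 228 bases before the start site in Cd36 and 94 bases before it in Cpt1a, and the Ucp2 window has 0 matches. Cd36 has 5 coding transcripts in the annotation, and the window covers 1 of its start sites.

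Lpl encodes lipoprotein lipase, which hydrolyzes the triglycerides of circulating lipoproteins (ENSMUSG00000015568.16, chr8:68880491-68907448, plus strand, GRCm38). Its level was 178, 145 and 147 CPM in db/+, 9.98 and 10.3 CPM in db/db, and 94.7 and 79.6 CPM in KO_db/db. The 3 groups were fully separated, in the order db/+ (156 ± 18.8 CPM, SD, n = 3), KO_db/db (87.2 ± 10.7 CPM, n = 2) and db/db (10.1 ± 0.201 CPM, n = 2). The log2 fold change was -3.98 (SE 0.15) in db/db against db/+, -0.84 (SE 0.14) in KO_db/db against db/+, and 3.12 (SE 0.16) in KO_db/db against db/db. Leaving out each library in turn, the last value ran from 2.98 to 3.25. Without the KO_db/db library of mouse 1, in which acinar genes were highest, Lpl in KO_db/db is represented by the 79.6 CPM of mouse 2, against 10.3 CPM at most in db/db. Acinar genes were high in mouse 2 too, at 11955 CPM compared to 80.7 to 414 CPM in db/+ and db/db. The part of acinar RNA in the Lpl level was not tested. The summed level of 4 markers of delta cells, the somatostatin cells of the islet, was also lowest in db/db. It was 365 to 2277 CPM in db/+, 84.1 and 165 CPM in db/db, and 504 and 628 CPM in KO_db/db, where KO_db/db overlapped with db/+. Sst, nearly all of that sum, fell by 3.21 (SE 0.82, adjusted p = 0.0219 with edgeR) in db/db against db/+. Of the other 3, Hhex (0.326 and 0.192 CPM in db/db, 0.275 to 1.43 CPM in db/+) and Ghsr (0.178 and 0.168 CPM, 0.344 to 1.80 CPM) had lower means in db/db, and Sstr1 (0.533 and 0.793 CPM, 0 to 0.123 CPM) a higher one. The part of delta cells in the Lpl level was not tested.

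The genes whose profile of log2 CPM over the 7 libraries was most like that of Lpl, among 7653 with a mean of at least 10 CPM, were Fam151a (root mean square difference 0.25), Tmem215 (0.35) and Oxct1 (0.47). Oxct1 encodes the mitochondrial enzyme that activates ketone bodies for oxidation. Its level was 94.7, 91.8 and 102 CPM in db/+, 11.4 and 11.2 CPM in db/db, and 51.1 and 37.2 CPM in KO_db/db. Fam151a was at 246, 209 and 218 CPM in db/+, 10.6 and 9.14 CPM in db/db, and 127 and 98.0 CPM in KO_db/db. All 3 had the same order of groups as Lpl without overlap, as the profile plot shows, and this likeness was what chose them.

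**Figure D2:**
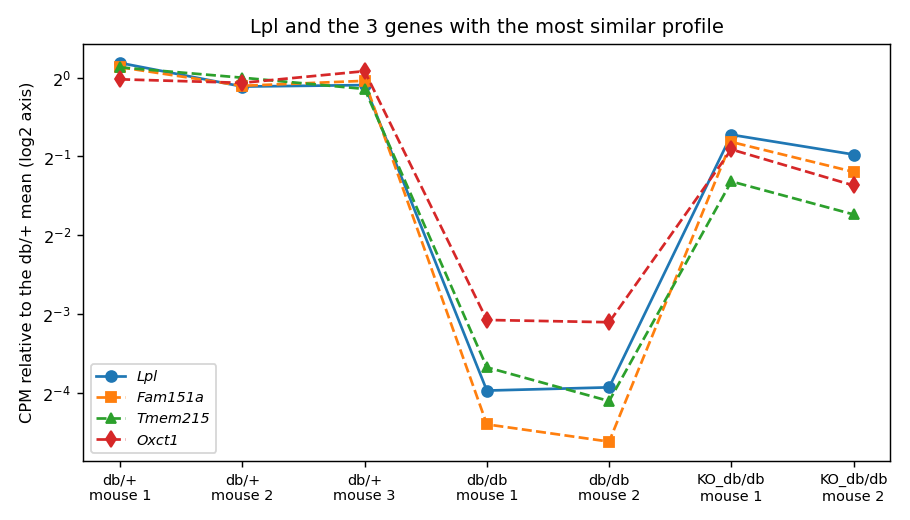
CPM of Lpl, Fam151a, Tmem215 and Oxct1 in each of the 7 libraries, relative to the mean of the 3 db/+ libraries of the same gene, on a log2 axis. The 4 genes were low in both db/db libraries and intermediate in both KO_db/db libraries.

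Angptl4 encodes a secreted inhibitor of lipoprotein lipase (ENSMUSG00000002289.16, chr17:33773750-33781830, minus strand). Its level was 2.58 and 2.72 CPM in db/db, 0.246, 0.0727 and 0.103 CPM in db/+, and 1.34 and 0.194 CPM in KO_db/db. Both db/db libraries were above all others, and the KO_db/db libraries differed from each other, with 33 and 8 counts. The db/+ libraries held 6, 2 and 3 counts, near the 3 counts taken as the detection floor. Angptl4 was higher in db/db than in db/+ by 4.20 on the log2 scale (SE 0.57, adjusted p = 0.00243, quasi-likelihood test of edgeR, adjusted by Benjamini-Hochberg), after entering the test through its db/db counts, and with no filter the adjusted p was 3.95e-05. The ratio of summed counts was 19.5 (95% exact interval 10.7 to 39.8, which covers counting error only). Against db/+, Angptl4 in KO_db/db did not pass the filter on low counts and was not tested, and the ratio was 4.60 (2.32 to 9.91). Compared to db/db, the log2 fold change in KO_db/db was -1.82 (SE 0.87). It ran from -3.74, without the library of KO_db/db mouse 1, to -0.950 when each library was left out.

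Cd36 encodes a membrane receptor that takes up long-chain fatty acids (ENSMUSG00000002944.15, chr5:17781690-17888801, minus strand). Its level was 12.6 and 10.4 CPM in db/db, 0.328, 0.327 and 1.17 CPM in db/+, and 0.896 and 0.389 CPM in KO_db/db. The db/db libraries stood far above the other 5, in which KO_db/db and db/+ overlapped. In db/db against db/+ the log2 fold change was 4.18 (SE 0.52, adjusted p = 0.00183 with edgeR), after Cd36 entered the test only through its db/db counts. With no filter on low counts the adjusted p was 5.74e-07 with edgeR. It ran from 3.88 to 5.10 when each library was left out. The summed counts, 860 and 51, gave a ratio of 18.1 (13.7 to 24.5). KO_db/db against db/+ gave 0.05 (SE 0.78, adjusted p = 0.967), with a count ratio of 0.919 (0.587 to 1.43). That small value became negative without the library of KO_db/db mouse 1 (-0.65), db/+ mouse 1 (-0.24) or db/+ mouse 2 (-0.25). Between KO_db/db and db/db the log2 fold change of Cd36 was -4.20 (SE 0.44), and from -4.87 to -3.65 when each library was left out.

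Macrophages, capillary endothelium and adipocytes are known to express Cd36, so their markers were set beside it. The sum over 15 macrophage genes was 58.1 and 78.1 CPM in db/db, 23.6 and 36.2 CPM in KO_db/db, and 37.4 to 62.8 CPM in db/+, with 1 to 5 of the 15 genes at 0. Most of this sum was C1qa (20.7 to 71.9 CPM), and Adgre1, Csf1r and Cd68 were at 0.622 CPM or less in every library. Of 8 macrophage genes tested in db/db against db/+, 2 were higher and 1 lower. Like Cd36 itself, the called genes C1qb, C1qc, Flt1, Aoc3 and Cidea entered the test only through their counts in db/db, so their values are given as a description. The higher ones were C1qb (0.474 and 0.457 CPM in db/db, at most 0.145 CPM in db/+) and C1qc (0.888 and 0.409 CPM, at most 0.0819 CPM). The lower one was Fcer1g, at 1.04 and 0.625 CPM in db/db and 4.88, 4.11 and 5.71 CPM in db/+. The sum over 15 endothelial genes was 15.02 and 23.0 CPM in db/db, 13.8 and 15.5 CPM in KO_db/db, and 9.22 to 47.9 CPM in db/+, with 0 to 4 of the 15 at 0. Pecam1 was the largest single part of it, and Cdh5 reached 0.413 CPM at most. Of 8 endothelial genes tested, Flt1 (0.563 and 1.90 CPM in db/db, at most 0.241 CPM in db/+) and Plvap (1.87 and 3.87 CPM, at most 1.02 CPM) were higher in db/db. The db/+ library with the highest Pecam1, that of mouse 3 at 44.99 CPM, also had the highest Cd36 of its group. The sum over 10 adipocyte genes was 2.96 and 3.27 CPM in db/db, 4.32 and 1.29 CPM in KO_db/db, and 0.287 to 0.722 CPM in db/+, with Adipoq, Lep, Retn and Cfd at 0 in all 7 libraries. Its 2 tested genes were both higher in db/db, namely Aoc3 (1.60 and 0.769 CPM in db/db, at most 0.103 CPM in db/+) and Cidea, described with the droplet proteins. The macrophage sum was higher in db/db than in KO_db/db and overlapped with db/+, and the adipocyte sum was higher in db/db than in db/+ and overlapped with KO_db/db. The part of these cell types in the Cd36 level was not tested.

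**Figure D3:**
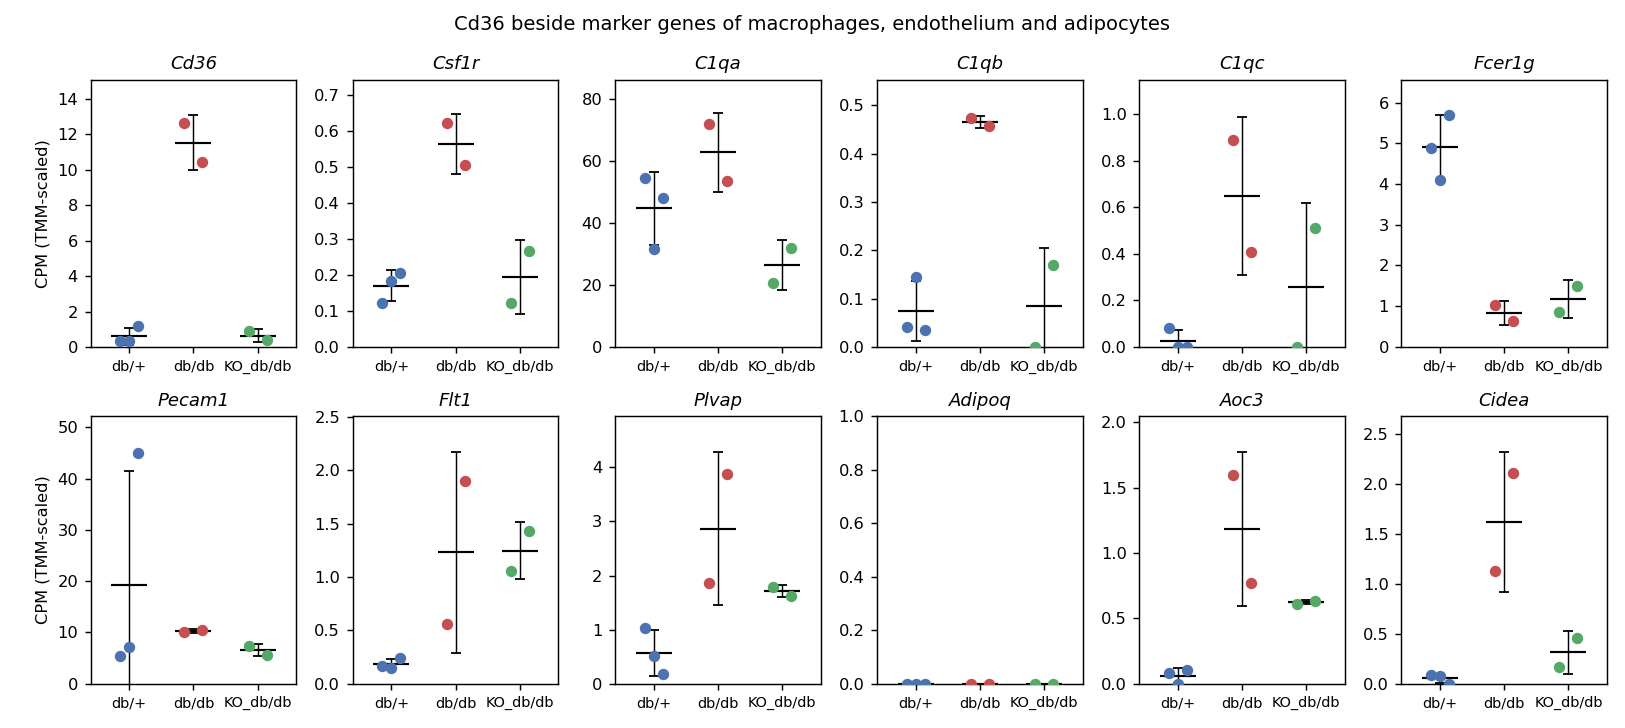
CPM of Cd36 and of marker genes of macrophages (Csf1r, C1qa, C1qb, C1qc, Fcer1g), endothelium (Pecam1, Flt1, Plvap) and adipocytes (Adipoq, Aoc3, Cidea) by group, 1 point per library with the mean and SD, each gene on its own axis from 0. C1qb, C1qc, Flt1, Aoc3 and Cidea, which entered the test only through db/db, and Plvap were called higher in db/db than in db/+ and Fcer1g lower, C1qa reached 71.9 CPM and Pecam1 44.99 CPM, and Adipoq was at 0 throughout.

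Plin2 encodes perilipin 2, the main coat protein of lipid droplets outside adipose tissue (ENSMUSG00000028494.12, chr4:86648386-86670060, minus strand). Its level was 9.01, 12.0 and 8.32 CPM in db/+, 12.9 and 10.05 CPM in db/db, and 5.70 and 7.73 CPM in KO_db/db. db/db overlapped with db/+, whereas both KO_db/db libraries were below all 5 others. The log2 fold change was 0.20 (SE 0.21, adjusted p = 0.486) in db/db against db/+ and -0.53 (SE 0.23, adjusted p = 0.109) in KO_db/db against db/+, and neither passed the test. KO_db/db against db/db gave -0.76 (SE 0.24).

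Pnpla2 encodes adipose triglyceride lipase, which catalyzes the first step of triglyceride breakdown in droplets (ENSMUSG00000025509.15, chr7:141455198-141460743, plus strand). Its level was 25.9, 26.5 and 27.1 CPM in db/+, 26.7 and 45.1 CPM in db/db, and 48.0 and 39.1 CPM in KO_db/db. The db/db libraries were split, with mouse 1 inside the db/+ range and mouse 2 inside the KO_db/db range. Pnpla2 was higher in KO_db/db than in db/+ by 0.72 (SE 0.12, adjusted p = 0.00502 with edgeR), without overlap. In db/db against db/+ the value was 0.41 (SE 0.21, adjusted p = 0.173). It depended on 1 library, being 0.75 (adjusted p = 0.0055) without db/db mouse 1 and -0.02 (adjusted p = 0.903) without db/db mouse 2. KO_db/db against db/db gave 0.29 (SE 0.28), or 0.72 without db/db mouse 2 and -0.04 without db/db mouse 1.

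Cpt1a encodes the carnitine palmitoyltransferase of the outer mitochondrial membrane, which is inhibited by malonyl-CoA and admits long-chain fatty acids to oxidation (ENSMUSG00000024900.5, chr19:3322334-3385733, plus strand). Its level was 43.3, 48.6 and 46.1 CPM in db/+, 95.5 and 113 CPM in db/db, and 103 and 92.4 CPM in KO_db/db. The Lepr db/db groups overlapped with each other and were above all db/+ libraries. The log2 fold change was 1.16 (SE 0.12, adjusted p = 0.0011) in db/db and 1.09 (SE 0.10, adjusted p = 0.000844) in KO_db/db, each against db/+. KO_db/db against db/db gave -0.09 (SE 0.15), and 0.0467 without db/db mouse 2.

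Acadm encodes medium-chain acyl-CoA dehydrogenase, which performs the first step of mitochondrial β-oxidation for medium chains (ENSMUSG00000062908.12, chr3:153922357-153944632, minus strand). Its level was 18.1, 19.0 and 12.9 CPM in db/+, 13.7 and 12.1 CPM in db/db, and 17.6 and 15.1 CPM in KO_db/db. The db/+ library of mouse 3 lay within the db/db range. The log2 fold change was -0.40 (SE 0.20, adjusted p = 0.154) in db/db against db/+. It was -0.55 with an adjusted p of 0.049 without db/+ mouse 3. KO_db/db against db/+ gave -0.02 (SE 0.19, adjusted p = 0.942), a value that took either sign when single libraries were left out (-0.17 to 0.0861). KO_db/db against db/db gave 0.36 (SE 0.18), with both KO_db/db libraries above both db/db libraries.

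Ucp2 encodes a carrier of the inner mitochondrial membrane that is known to limit ATP production and glucose-stimulated insulin secretion (ENSMUSG00000033685.13, chr7:100493337-100502020, plus strand). Its level was 193, 224 and 224 CPM in db/+, 476 and 482 CPM in db/db, and 409 and 363 CPM in KO_db/db. The 3 groups were separated, in the order db/db (479 ± 4.30 CPM, SD, n = 2), KO_db/db (386 ± 33.1 CPM, n = 2) and db/+ (214 ± 17.7 CPM, n = 3). The log2 fold change was 1.14 (SE 0.12, adjusted p = 0.00112) in db/db and 0.86 (SE 0.13, adjusted p = 0.00357) in KO_db/db, each against db/+. It was -0.30 (SE 0.17) in KO_db/db against db/db. Ucp2 overlaps with Dnajb13 on the opposite strand, which had 0 to 1 counts.

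**Figure D4:**
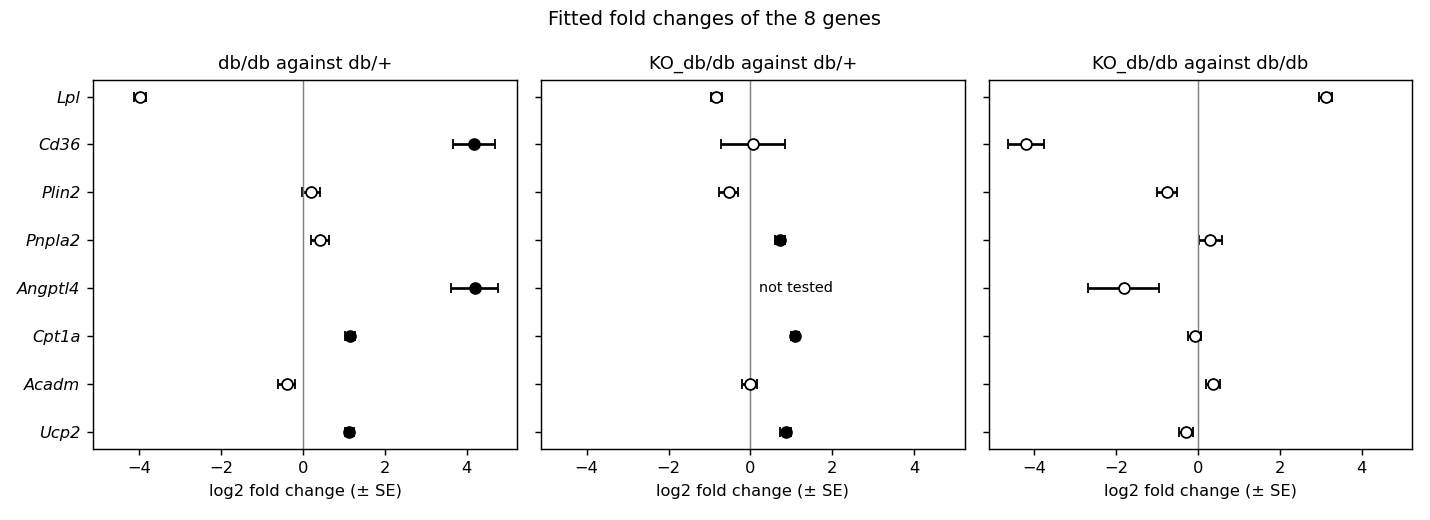
Log2 fold changes (points) with their SE (bars) of the 8 genes in 3 comparisons, where filled points passed an adjusted p of 0.05 and open points did not or were given no test (Lpl in every panel and all genes in the right panel). Cd36 and Angptl4, filled in the left panel, entered the test only through their counts in db/db. Cpt1a and Ucp2 were to the right of 0 in both comparisons with db/+, and Lpl and Cd36 lay on opposite sides in both comparisons with db/db.

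Per kilobase of the longest coding transcript, Ucp2 had the highest level of the 8 genes in all 3 groups (53.6 CPM per kb in db/+, 120.1 in db/db and 96.8 in KO_db/db). Lpl came next in db/+ (38.02 CPM per kb); in db/db, at 2.46 CPM per kb, it was below Cd36 (3.39 CPM per kb) and above Angptl4 alone (0.800 CPM per kb). In db/+, Cd36 (0.179 CPM per kb) and Angptl4 (0.0425 CPM per kb) were the lowest. Between libraries of the same group, the SD of log2 CPM was 0.10 for Ucp2, 0.13 for Cpt1a and 0.14 for Lpl, compared to 0.72 for Cd36 and 1.06 for Angptl4.

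Between KO_db/db and db/db, the libraries did not overlap for 6 of the 8 genes, compared to 57.5% of 13486 genes, and since Lpl was chosen in this comparison nothing is read from the count. Lpl and Acadm were above db/db, and Cd36, Plin2, Angptl4 and Ucp2 were below it. Set side by side, the log2 fold changes against db/+ in KO_db/db and in db/db were -0.84 and -3.98 for Lpl, 0.05 and 4.18 for Cd36, 1.09 and 1.16 for Cpt1a, and 0.86 and 1.14 for Ucp2. Both comparisons share the db/+ libraries. Those of Cpt1a and Ucp2 were positive in both Lepr db/db groups.

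To place these genes in their pathway, 125 other genes in 10 role lists were followed. In db/db against db/+, 25 of 96 tested genes were higher and 21 lower (47.9% called, compared to 37.8% of all genes). Against db/+, 27 of 96 in KO_db/db were higher and 14 lower (42.7%, compared to 38.4%). Of the higher genes, 6 of the 25 and 6 of the 27 entered the test only through the group that was high, so nothing is read from these shares. The 41 calls in KO_db/db fell to 22 and 25 without db/+ mouse 1 and db/+ mouse 2. Calls over all genes fell too, from 38.4% to 25.6% and 26.6%. Between KO_db/db and db/db, edgeR called 0 of 100 genes, compared to 0.319% of 13486 genes. Among the 100, 27 had an unadjusted p under 0.05 (20.9% of all genes). DESeq2 called 12 pathway genes and 1401 of 35013 genes (4%), a larger set than the 13486 tested with edgeR. The median log2 fold change of the tested genes of the 10 lists was 0.04, 0.06 and 0.05 in the 3 comparisons, against 0.0064, -0.0034 and -0.02 over all genes.

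**Figure D5:**
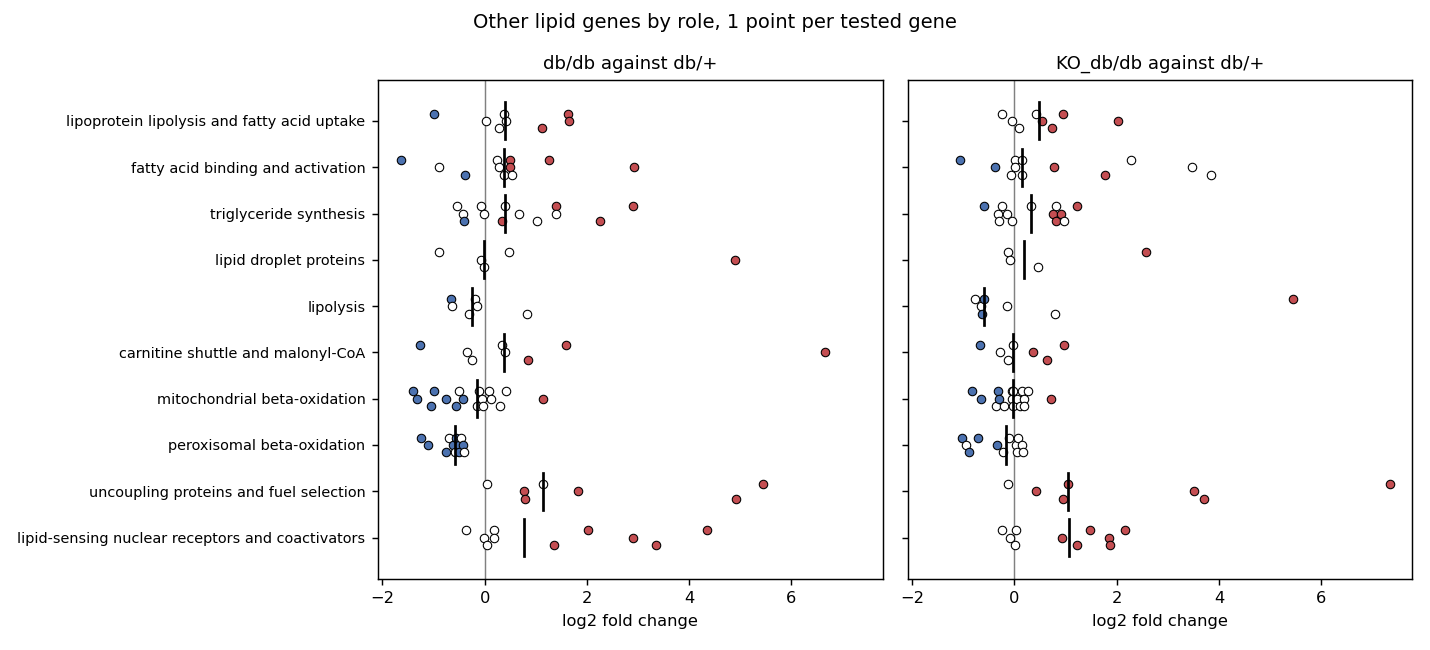
Log2 fold changes of the tested genes of 10 role lists, without the 8 genes above, in db/db (left) and KO_db/db (right) against db/+, where red points were called higher, blue points lower, open points were not called and black bars are medians. All 12 tested genes of peroxisomal β-oxidation were left of 0 in db/db, and 7 of 12 in KO_db/db.

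Among genes of lipoprotein lipolysis and fatty acid uptake, 8 were tested in each comparison with db/+. In db/db 3 were higher and 1 lower, and in KO_db/db 4 were higher and 0 lower. That was 50% called in both, compared to 37.8% and 38.4% of all genes. Lrp1, an endocytic receptor of lipoprotein remnants, rose by 1.66 (SE 0.19) in db/db and 2.02 (SE 0.19) in KO_db/db. Its level was 3.24, 2.76 and 2.89 CPM in db/+, 9.03 and 10.02 CPM in db/db, and 13.3 and 10.6 CPM in KO_db/db. Scarb1, a receptor of high-density lipoprotein, rose by 1.63 (SE 0.12) in db/db and 0.73 (SE 0.11) in KO_db/db.

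Of 11 tested genes that bind and activate fatty acids, 4 were higher and 2 lower in db/db. In KO_db/db, 2 were higher and 2 lower of 12. That was 54.5% and 33.3% called, compared to 37.8% and 38.4% of all genes. Fabp5, an intracellular fatty acid binding protein, rose by 2.93 (SE 0.32) in db/db and 1.77 (SE 0.27) in KO_db/db, although its reads may be shared with near-identical copies in the genome. Acsl1, which activates long-chain fatty acids to acyl-CoA, rose by 1.27 (SE 0.15) and 0.77 (SE 0.12). Acot13, an acyl-CoA thioesterase, fell by 1.63 (SE 0.20) and by 1.07 (SE 0.18).

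In triglyceride synthesis, 4 of 13 genes were higher and 1 lower in both comparisons with db/+, or 38.5% called, compared to 37.8% and 38.4% of all genes. Lpin1, a phosphatidate phosphatase that is also a nuclear coactivator, was at 17.1, 25.3 and 26.5 CPM in db/+, 195 and 155 CPM in db/db, and 47.0 and 59.2 CPM in KO_db/db. The 3 groups did not overlap, and Lpin1 rose by 2.90 (SE 0.21, adjusted p = 0.000511) in db/db and by 1.22 (SE 0.20, adjusted p = 0.00537) in KO_db/db. Compared to db/db, Lpin1 in KO_db/db was at -1.71 (SE 0.19, adjusted p = 0.0538 with edgeR). Lpin2 rose by 1.39 (SE 0.16) and 0.81 (SE 0.15) against db/+. Dgat2, which completes triglyceride synthesis, rose by 2.25 (SE 0.60, adjusted p = 0.026) in db/db, but not past the threshold without db/db mouse 2 (adjusted p = 0.111) or db/+ mouse 1 (adjusted p = 0.0502).

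Among droplet proteins, 1 of 5 tested genes was higher in db/db and 1 of 4 in KO_db/db. That was 20% and 25% called. Of all genes, 37.8% and 38.4% were called in either direction and 19.9% and 20.5% higher. The 1 called in db/db entered the test only through db/db, so its count is not read against these shares. The gene called in db/db was Cidea, which promotes droplet fusion and which, like Mgll below, is named after its values were seen. It was at 1.13 and 2.12 CPM in db/db, 0.163 and 0.462 CPM in KO_db/db, and 0.0819, 0.0727 and 0 CPM in db/+, where all 3 libraries were at or under the floor. The gene called in KO_db/db was Hsd17b13, a droplet-associated enzyme, at 24.5 and 2.75 CPM in KO_db/db, 2.13 and 2.48 CPM in db/db and 1.80, 2.29 and 2.75 CPM in db/+. Its log2 fold change of 2.57 (SE 0.78, adjusted p = 0.0401) in KO_db/db against db/+ rested on mouse 1, the library with the highest acinar sum, and was 0.26 (adjusted p = 0.663) without it. The call was also lost without db/+ mouse 1, 2 or 3 (adjusted p = 0.112, 0.111 and 0.081). In lipolysis, 1 gene was lower of 6 tested in db/db, and 1 was higher and 2 lower of 7 in KO_db/db. That was 16.7% and 42.9% called, compared to 37.8% and 38.4% of all genes. The 1 higher gene entered the test only through KO_db/db, so the KO_db/db count is not read against this share. The higher one was Mgll, monoacylglycerol lipase, at 4.93 and 0.875 CPM in KO_db/db, 0.207 and 0.361 CPM in db/db, and 0.0819, 0.0364 and 0.0687 CPM in db/+, all 3 of them under the floor. Abhd5, the coactivator of PNPLA2, fell by 0.65 (SE 0.13, adjusted p = 0.00934) in db/db and by 0.60 (SE 0.15, adjusted p = 0.021) in KO_db/db. Abhd6, another lipase of monoacylglycerol, fell by 0.63 (SE 0.17, adjusted p = 0.0252) in KO_db/db. The KO_db/db calls of both were lost without KO_db/db mouse 1 (adjusted p = 0.0854 and 0.0978), db/+ mouse 1 (0.0535 and 0.0614) or db/+ mouse 2 (0.0592 and 0.0798), and that of Abhd5 also without db/+ mouse 3 (0.0523).

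In the carnitine shuttle and malonyl-CoA metabolism, 3 genes were higher and 1 lower of 8 in db/db. In KO_db/db, 3 were higher and 1 lower of 7. That was 50% and 57.1% called, compared to 37.8% and 38.4% of all genes. Of the 3 higher in db/db, Acacb (0, 0 and 1 counts in db/+) entered the test only through db/db. The db/db count is therefore not read against this share. Acaca, the acetyl-CoA carboxylase that makes malonyl-CoA for fatty acid synthesis, was at 110 and 50.0 CPM in db/db, 41.2 and 39.0 CPM in KO_db/db and 24.2, 28.4 and 25.2 CPM in db/+. It rose by 1.59 (SE 0.29) and 0.64 (SE 0.11) against db/+, and the value in db/db was 0.93 without db/db mouse 1. The KO_db/db call was lost with all 7 libraries in one fit (0.63, adjusted p = 0.121). Crat, carnitine acetyltransferase, rose by 0.86 (SE 0.16) and 0.97 (SE 0.13). Mlycd, which degrades malonyl-CoA, rose by 0.36 (SE 0.10, adjusted p = 0.0282) in KO_db/db, and did not pass the test without KO_db/db mouse 1 (adjusted p = 0.104), KO_db/db mouse 2 (0.0548), db/+ mouse 1 (0.0927) or db/+ mouse 3 (0.0555).

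Of the enzymes of mitochondrial β-oxidation, 7 were lower and 1 higher of 17 tested in db/db, and 4 were lower and 1 higher in KO_db/db, each against db/+, where 18% and 17.9% of all genes were lower. Hadh, the short-chain hydroxyacyl-CoA dehydrogenase that is abundant in β-cells, was at 940, 918 and 807 CPM in db/+, 318 and 368 CPM in db/db, and 521 and 466 CPM in KO_db/db. The 3 groups were separated, and Hadh fell by 1.40 (SE 0.14) in db/db and by 0.84 (SE 0.16) in KO_db/db. Acadsb, which acts on short branched chains, fell by 1.32 (SE 0.20) in db/db and by 0.33 (SE 0.08, adjusted p = 0.0193) in KO_db/db. The latter did not pass the test without KO_db/db mouse 1 or 2 (adjusted p = 0.0618 and 0.0762) or db/+ mouse 1 or 2 (0.0574 and 0.0626). Eci2, an enoyl-CoA isomerase, was the 1 gene that rose, by 1.15 (SE 0.14) and 0.71 (SE 0.08).

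In peroxisomal β-oxidation, which shortens very long chains, 8 of 12 tested genes were lower in db/db and 4 of 12 in KO_db/db, with 0 higher in either and medians of -0.57 and -0.17. Of all genes, 18% and 17.9% were lower. Decr2, a dienoyl-CoA reductase, was at 26.96, 27.1 and 20.8 CPM in db/+, 10.9 and 10.6 CPM in db/db, and 12.99 and 13.7 CPM in KO_db/db. It fell by 1.24 (SE 0.16) and by 0.90 (SE 0.15). Crot, which exports shortened chains as carnitine esters, fell by 1.03 (SE 0.13) in KO_db/db, and the value in db/db was -0.70 (SE 0.23, adjusted p = 0.0533).

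Of genes of uncoupling and fuel selection, 5 of 7 were higher in db/db and 6 of 7 in KO_db/db, with 0 lower (19.9% and 20.5% of all genes were called higher). Among them, 2 of the 5 and 3 of the 6 entered the test only through the group that was high, so the counts are not read against these shares. Pdk2, a kinase that switches pyruvate dehydrogenase off, rose by 0.78 (SE 0.14) in db/db and 0.94 (SE 0.14) in KO_db/db. Pdk1 rose by 1.83 (SE 0.29) in db/db, where mouse 1 had 151 CPM and mouse 2 had 72.3 CPM. In KO_db/db it rose by 0.43 (SE 0.13, adjusted p = 0.0441), a call that was lost without any 1 of the 5 libraries (adjusted p = 0.174 without KO_db/db mouse 1, 0.0641 without KO_db/db mouse 2, and 0.101, 0.0526 and 0.0696 without db/+ mouse 1, 2 and 3). The call of Pdk4, another of the 6, was lost without KO_db/db mouse 1, db/+ mouse 1 or db/+ mouse 3 (adjusted p = 0.324, 0.0973 and 0.0893).

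Of lipid-sensing nuclear receptors and coactivators, 5 of 10 were higher in db/db and 6 of 10 in KO_db/db, with 0 lower (19.9% and 20.5% of all genes). Ppara and Ppargc1b, among the called genes in both, entered the test only through the group that was high, so the counts are not read against these shares. In KO_db/db, the call of Ppara (log2 fold change 1.87) was lost without any 1 of the 5 libraries (1.76 to 2.10, adjusted p = 0.0615 to 0.128), with DESeq2 (adjusted p = 0.07) and with no filter on low counts (0.105), and that of Ppargc1a without KO_db/db mouse 1, db/+ mouse 1 or db/+ mouse 2 (0.201, 0.0662 and 0.0782). Rxra, the partner of PPARs and of retinoic acid receptors, was at 27.3, 33.7 and 23.3 CPM in db/+, 61.5 and 84.6 CPM in db/db, and 79.8 and 75.6 CPM in KO_db/db. It rose by 1.35 (SE 0.20) and 1.47 (SE 0.15), and db/db and KO_db/db overlapped with each other. Ppard, the PPAR that is most evenly expressed across tissues, rose by 0.93 (SE 0.12, adjusted p = 0.00218) in KO_db/db. Its level was 33.3 and 31.0 CPM there, 15.3 and 24.2 CPM in db/db and 18.7, 15.5 and 16.8 CPM in db/+. The value in db/db was 0.19 (SE 0.21, adjusted p = 0.515), and in KO_db/db against db/db 0.72 (SE 0.25, adjusted p = 0.201), so that a difference between KO_db/db and db/db did not pass the test. A list of 28 PPAR target genes without the 8 genes had 5 higher and 2 lower of 21 in db/db and 6 higher and 1 lower of 21 in KO_db/db, or 33.3% called in both, compared to 37.8% and 38.4% of all genes in either direction and 19.9% and 20.5% higher. In each comparison 3 of the higher genes entered the test only through the group that was high.

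The genes with the profiles most like that of Cpt1a were Kifc3, Prkcd and Zfp362 (root mean square difference 0.07 to 0.08 over 7 libraries), and for Ucp2 Tmem63b, Gsto1 and Map4k4 (0.07 to 0.09). For Acadm they included 2 other genes of fatty acid oxidation, Hsd17b4 of the peroxisome (0.10) and Cpt2 of the carnitine shuttle (0.11), besides Pptc7 (0.11). For Pnpla2 they were Reep6, Smpd4 and H3f3b (0.06 to 0.08), and for Plin2 Tex10, Rbm7 and Mtpap (0.09 to 0.14). For Cd36 they were Scarf2, Rps13 and Txnip (0.66 to 0.79), and for Angptl4 Gfra1, Ache and Slc38a5 (0.51 to 0.62). H3f3b and Rps13 have near-identical copies that could share their reads.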

How the data were processed

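Poly-A RNA of sorted β-cells was sequenced from 2 KO_db/db, 2 db/db and 3 db/+ mice, grouped by the sample labels, which name genotype and mouse. Where nothing else separates the samples, p-values measure the spread between these mice. The authors deposited estimated counts per gene from kallisto (0.44.0 per the submitters' processing notes, GRCm38; bcl2fastq 2.19), rounded to whole numbers and not normalized. kallisto divides reads between similar transcripts, so near-identical genes are uncertain. The table had 35013 symbols, 14637 of them at 0 throughout, and 0 unused columns. Totals of 27496645 to 35852785 put the floor of 3 counts at 0.0721 to 0.123 CPM.

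The 3 pairs of groups were each fitted separately in R 4.3.3 with edgeR 4.0.16 (filterByExpr with a minimum count of 10, TMM, quasi-likelihood test, Benjamini-Hochberg adjustment over all genes tested, threshold 0.05), and this was tested on simulated data. A gene entered the test only through its high group where fewer than 2 libraries of the low group reached the level the filter asks. Log2 fold changes have the group named first as numerator, and adjusted p values are from this test unless DESeq2 (1.42.0) is named. CPM was scaled by TMM over all 7 libraries. Members and lists were chosen with earlier results of these data known. Named genes were the 8 members, up to 3 called genes of each role list with the largest absolute log2 fold change and a mean of at least 5 CPM, and the 3 genes (mean of at least 10 CPM, predicted genes and pseudogenes left out) most like each member by root mean square difference of centred log2 CPM (prior count 2). Coordinates are from the GENCODE annotation of GRCm38. Alternatives were RLE scaling, DESeq2, no filter, 1 fit over 7 libraries, a block for the mouse number, TMM without acinar and Reg genes or their removal, a threshold of 0.01, and leaving out each library. Some genes that the rule for named genes selects are not reported here.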

Additional observations from a re-analysis of the deposited data

How the results depend on the processing

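Of the 7 genes other than Lpl, 4 were called in db/db against db/+, compared to 37.8% of all genes. When each db/+ library was left out, 4 to 5 were called, compared to 24.4% to 31.9% of all genes. Of the 4, Cd36 and Angptl4 entered the test only through db/db, so nothing is read from these counts. In KO_db/db against db/+, 3 of 6 tested genes were called (38.4% of all genes). The count stayed at 3 when each db/+ library was left out (25.6% to 35.4% of all genes). Among 96 tested pathway genes in db/db against db/+, 46 were called (47.9%, compared to 37.8% of all genes), of which 6 entered the test only through db/db. In KO_db/db against db/+, 41 were called (38.4% of all genes), and 21 at an adjusted p under 0.01 (18.1% of all genes). When each db/+ library was left out, 22 to 34 were called, compared to 25.6% to 35.4% of all genes. In KO_db/db against db/db, the count of 0 became 12 with DESeq2, 16 with no filter on low counts and 6 with all 7 libraries in one fit. It became 1 with acinar and Reg genes left out. Over all genes, 43 calls became 1401, 1570, 818 and 56 under these settings. The cause was not tested. In this comparison each library left out leaves 1 in a group, so the counts of those fits are not given. Where a library left out leaves 1 in a group, that library is assumed to vary like the other group.

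Signs turned for Pnpla2 in db/db against db/+ (-0.0220 without db/db mouse 2, up to 0.746), for Cd36 in KO_db/db against db/+ (-0.654, -0.244 and -0.25 without KO_db/db mouse 1, db/+ mouse 1 and db/+ mouse 2, up to 0.948), for Acadm in the same comparison (0.0859, 0.0372 and 0.0861 without KO_db/db mouse 2, db/+ mouse 1 and db/+ mouse 2, down to -0.173) and for Cpt1a in KO_db/db against db/db (0.0467 without db/db mouse 2, down to -0.208). Pnpla2 in KO_db/db against db/db also turned, to -0.0401 without db/db mouse 1. Values in db/db or KO_db/db against db/+ that turned had not passed the test, and those in KO_db/db against db/db were given none. Over all pairs of a named gene and an alternative, 907 kept their direction and side of the threshold (or, without a test, moved by less than 1 SD), 64 fell short of the threshold and 2 newly passed it.

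With the mouse number as a replicate block, 43, 29 and 0 pathway genes were called in the 3 comparisons, compared to 33.7%, 28.6% and 0.163% of all genes. Of the genes other than Lpl, 4 of 7 were called in db/db and 3 of 6 tested in KO_db/db, each against db/+. The counts include genes that entered the test only through the group that was high. The labels do not say whether the numbers pair the mice. Same-numbered deviations from the group means correlated at -0.064 (KO_db/db and db/db), -0.111 (KO_db/db and db/+) and 0.063 (db/db and db/+) across genes. With 1 such deviation per group, these values cannot decide it. With the block, the calls of Hsd17b13, Abhd5, Mlycd, Acadsb, Pdk1, Ppara and Pdk4 in KO_db/db against db/+ were lost.

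Depth limited Angptl4, with 11 counts over the 3 db/+ libraries. Sex was not given per library. Y-linked genes were high in db/+ mouse 3 alone, with Eif2s3y at 24.9 CPM there and at 0 in every other library. By these genes that library came from a male and the others from females, so sex was not balanced between the groups. Without db/+ mouse 3, 5 of 7 and 3 of 6 tested genes and 39 and 34 pathway genes were called in db/db and KO_db/db against db/+. Of all genes, 31.9% and 35.4% were called. Acinar RNA, highest in the pair of KO_db/db libraries, cannot be told apart from the group.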

Other observations

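Of genes under the mean level asked of named genes, 3 regulators of fatty acid use are described here by their values, since they were chosen after those values were seen. The adjusted p values given for them above are from settings in which a KO_db/db call was lost, and no test is added here. Ppara, the PPAR that drives fatty acid oxidation in liver, was at 0.164, 0.255 and 0.172 CPM in db/+, 6.40 and 2.04 CPM in db/db, and 0.733 and 0.729 CPM in KO_db/db. The 3 groups did not overlap.

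Ppargc1a, a coactivator of PPARs and of mitochondrial biogenesis, was at 0.696, 0.400 and 0.756 CPM in db/+, 9.92 and 3.15 CPM in db/db, and 3.01 and 1.46 CPM in KO_db/db. In both genes, db/db mouse 1 had the highest level. Pdk4, a pyruvate dehydrogenase kinase known as a PPAR target, was at 0.0819, 0.691 and 0.103 CPM in db/+, 8.94 and 9.38 CPM in db/db, and 5.90 and 0.948 CPM in KO_db/db. KO_db/db mouse 1, in which acinar genes were highest, was far above mouse 2 for Pdk4.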
